A study of Mus musculus with 45 samples.

Results

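The 5S ribonucleoprotein is the complex of 5S rRNA with the ribosomal proteins Rpl5 and Rpl11 that enters the large ribosomal subunit as a unit. The genes described here are those that make and load it: Rpl5, Rpl11, Rrs1, Rpf2 and Heatr3. They were taken by symbol, and all 5 were among the 13449 genes of the deposited expression table. Rpl5 is also the gene deleted in one of the mouse lines, so its level in that line checks the labels.

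Livers came from E15.5 fetuses of mothers heterozygous for VavCre and fathers with 2 floxed copies of Rpl5 or of Rps19, so that each fetus had 1 floxed copy. VavCre expresses the Cre recombinase in blood cells and their precursors, and other cells of the liver keep the allele. The 4 genotypes were VavCre Rpl5flox/+ with Rpl5flox/+ as its control, and VavCre Rps19flox/+ with Rps19flox/+ as its control. No library came from a group with VavCre and no floxed allele. An effect of VavCre itself therefore cannot be told apart from loss of the gene copy. All livers were treated with emetine, which halts translating ribosomes, at 25 µg/mL for 15 min. Magnetic beads took Kit+ cells, a fraction rich in progenitors, and then Ter119+ cells, which are maturing erythroid cells, from what was left. Cells were pooled by genotype before lysis, so a replicate is a pool of fetuses and not 1 animal. Each lysate was split on a sucrose gradient into cytoplasm and polysome fractions, and poly(A) RNA was sequenced.

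There were 24 cytoplasm and 21 polysome libraries in 16 groups, 14 of them with 3 libraries. The VavCre Rpl5flox/+ Kit+ polysome group held 1 library and the Rpl5flox/+ Ter119+ polysome group held 2. Libraries held 44.99 to 123 M (mega) reads in Ter119+ cytoplasm and 22.9 to 70.1 M in Kit+ cytoplasm. Polysome libraries held 1.02 to 39.8 M in Ter119+ cells and 1.01 to 37.6 M in Kit+ cells, and 4 of them held under 2 M. Kit was 3.54 to 852 normalized counts in Ter119+ cytoplasm against 1382 to 1971 in Kit+ cytoplasm, and the erythroid anion exchanger gene Slc4a1 was 61081 to 777566 in Ter119+ against 650 to 9376 in Kit+ cytoplasm. In cytoplasm these 2 markers therefore separated the sorted cell types. Among Ter119+ cytoplasm groups the sum of 5 Kit+ markers was highest in that labelled VavCre Rpl5flox/+ (2984 to 3104, against 277 to 624 in its control). Levels below are normalized counts, which are reads divided by the size factor of the library, and changes are differences of the deposited log2 values with the standard error of the fit. A gene was called at an adjusted p under 0.05 in limma. Groups did not overlap, or were apart, where every library of a group lay above every library of the other. The share of all genes with groups apart was not counted. Each p reflects the spread among pools and no other source of variation, and in pooled cells fewer cells of a type and less RNA per cell cannot be told apart.

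As background, Rpl5 and Rpl11 bind 5S rRNA before the particle joins the pre-ribosome. HEATR3 is known in human cells as a factor that brings RPL5 into the nucleus. Rrs1 and Rpf2, known best from yeast, form a pair that recruits the particle to the early large subunit. When ribosome assembly stalls, free 5S ribonucleoprotein binds Mdm2, the ubiquitin ligase of p53, and p53 then accumulates. In people, loss of 1 copy of RPL5, RPL11 or RPS19 is a known cause of Diamond-Blackfan anaemia, in which red cell production fails.

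The mRNAs of ribosomal proteins are known for a run of pyrimidines at their 5′ end, the terminal oligopyrimidine motif, through which their translation is regulated. The sequence around the annotated start of 4 of the genes is shown because polysome loading of these mRNAs is compared below. Each is from RefSeq's GRCm38.p6 table, 5′ to 3′ on the strand of the gene, and capitals mark the longest unbroken run of C and T in the window.
Rpl5, chr5:107900503-107900532, plus strand: agccaCTCTTTCTCacgtcgcttgcgtgct
Rpl5, chr5:107900548-107900577, plus strand: tgcgcatgcgtacgtgactccggTCTTTTT
Rpl11, chr4:136053364-136053393, minus strand: acggggccggaagTCTCCCTCTCTCTTCCT
Rpf2, chr10:40247025-40247054, minus strand: ggcaccgTCTCTTCCggcgctcgcggcggc
Heatr3, chr8:88137870-88137899, plus strand: TTTTCCatgtgtgctcaggccgtcacattg

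Rpl11 had a run of 17 pyrimidines from base 14 to base 30 counted from its annotated start. RefSeq's tables give Rpl5 different starts, 107900508 for the gene and 107900528 for the sequence window, 20 bases downstream. Its run of 9 was bases 1 to 9 counted from the first of these and bases -20 to -12 counted from the second. A run of 7, at bases 64 to 70 or 44 to 50, reached the end of the sequence at hand. Rpf2 had a run of 8 that ended just before its start, and Heatr3 had 6 in the window shown. Runs of 8 or more C or T letters, on the strand of the gene and within 50 bases on either side of the start, were present at 35.7% of 32851 annotated starts and at 32 of 38 starts of the other large-subunit ribosomal protein genes. The match says only which letters are there.

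Rpl5 lies on chromosome 5 (107900508 to 107909005), shares 964 bases with Dipk1a and has 2 annotated pseudogenes named after it. Rpl11 lies on chromosome 4 (136049354 to 136053393) and Rrs1 on chromosome 1 (9545408 to 9547455). Rpf2 is on chromosome 10 (40223246 to 40247039) and Heatr3 on chromosome 8 (88137885 to 88171952). How reads shared between Rpl5, Dipk1a and the pseudogenes were counted is not given in the sources used here, so Rpl5 levels carry that uncertainty.

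In cytoplasm every member was read in all 24 libraries, with at least 286 reads for Rpl5, 7003 for Rpl11, 168 for Rrs1, 93 for Rpf2 and 162 for Heatr3. Rpl5 ranged from 295 to 1112 normalized counts with a median of 494. Rpl11 ranged from 7994 to 18532 with a median of 13499, and Rrs1 from 206 to 2130 with a median of 1435. Rpf2 ranged from 114 to 837 with a median of 546, and Heatr3 from 199 to 1863 with a median of 696. All 5 genes had their lowest group mean in Rpl5flox/+ Ter119+ cytoplasm. The highest group was Rpl5flox/+ Kit+ for Rpl5, VavCre Rpl5flox/+ Kit+ for Rpl11 and Rpf2, and VavCre Rps19flox/+ Kit+ for Rrs1 and Heatr3.

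**Figure D1:**
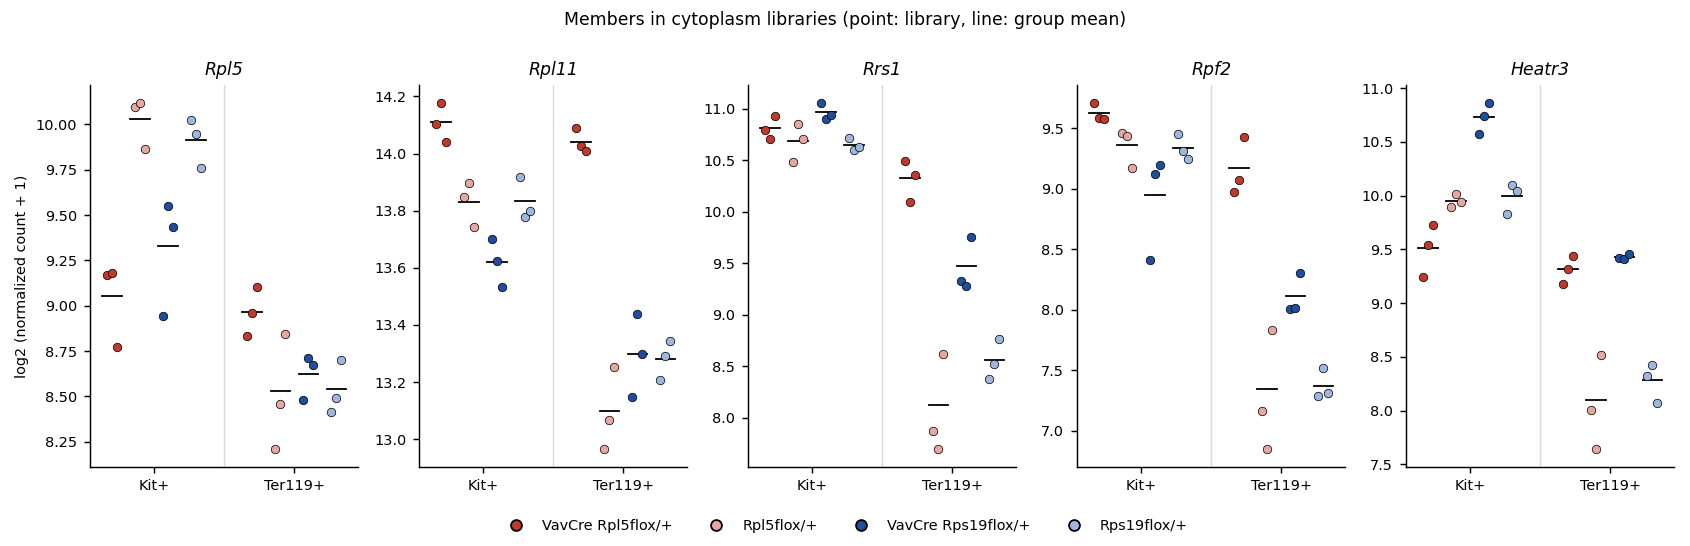
Level of each gene in the 24 cytoplasm libraries, as log2 of the normalized count plus 1, by cell type and genotype. Points are libraries, lines are group means and each panel has its own vertical range; Rpl5 in Kit+ cells is lower in both VavCre groups than in both controls, and Rrs1, Rpf2 and Heatr3 in Ter119+ cells are higher in both VavCre groups than in both controls.

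The first comparison asked how the genes changed in Kit+ progenitors that had lost 1 copy of Rpl5 or Rps19. Rpl5 itself was lower in both lines. It was 576, 579 and 437 in VavCre Rpl5flox/+ Kit+ cytoplasm, against 1096, 1112 and 930 in Rpl5flox/+. Every VavCre library was below every control, and the change was -0.97 ± 0.15 (adjusted p = 0.000287), a level 0.512 times that of the controls. In VavCre Rps19flox/+ it was 491, 748 and 691, against 1042, 986 and 866 in Rps19flox/+. These groups did not overlap either (-0.59 ± 0.15, adjusted p = 0.00476). Dipk1a, which shares bases with Rpl5, changed by -0.16 (adjusted p = 0.501) and -0.41 (adjusted p = 0.0575) in the Rpl5 and Rps19 lines.

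Rpl11, the partner of Rpl5 on 5S rRNA, moved in opposite directions in the 2 lines, by small amounts. It was 17603, 18532 and 16865 in VavCre Rpl5flox/+ Kit+ cytoplasm, against 14741, 15257 and 13692 in Rpl5flox/+. All VavCre libraries were above the controls (0.28 ± 0.08, adjusted p = 0.0133). In VavCre Rps19flox/+ it was 13307, 12630 and 11837, against 15479, 14034 and 14265 in Rps19flox/+, so that the VavCre libraries were all below (-0.21 ± 0.08, adjusted p = 0.0347). The first call was lost without Rpl5flox/+ replicate 3 (0.24, adjusted p = 0.0567) or VavCre Rpl5flox/+ replicate 2 (0.24, adjusted p = 0.0551). The second was lost without Rps19flox/+ replicate 1 or 3, or VavCre Rps19flox/+ replicate 2 or 3 (-0.23 to -0.17, adjusted p = 0.133 at most).

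Rrs1 and Rpf2, the recruiting pair, were not called in the Rpl5 line. Rrs1 was 1796 ± 137 in VavCre Rpl5flox/+ and 1647 ± 210 in Rpl5flox/+ Kit+ cytoplasm (SD, n = 3 each), and the 95% interval of the log2 change ran from -0.08 to 0.33 (adjusted p = 0.316 in limma). Rpf2 was 837, 766 and 764 in VavCre Rpl5flox/+, against 704, 690 and 577 in Rpl5flox/+, with an interval from -0.08 to 0.61 (adjusted p = 0.218 in limma). In the Rps19 line the pair split. Rrs1 rose (2130, 1915 and 1963 in VavCre Rps19flox/+, against 1676, 1552 and 1584 in Rps19flox/+), by 0.32 ± 0.10 (adjusted p = 0.0124). Rpf2 fell (340, 556 and 586 in VavCre Rps19flox/+, against 698, 634 and 605 in Rps19flox/+), by 0.41 on the log2 scale (standard error 0.16, adjusted p = 0.0424). The lowest Rpf2 value was VavCre Rps19flox/+ replicate 1, and without that library the change was -0.17 (adjusted p = 0.169). The call was also lost without any 1 of the controls (-0.46 to -0.36, adjusted p = 0.133 at most). Rescaling the libraries to each other ended the Rrs1 call (0.22, adjusted p = 0.0624).

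Heatr3, whose product carries Rpl5 into the nucleus in human cells, also went opposite ways. It was 607, 742 and 844 in VavCre Rpl5flox/+ Kit+ cytoplasm, against 953, 1037 and 979 in Rpl5flox/+. All VavCre libraries were lower (-0.44 ± 0.12, adjusted p = 0.00957), and without VavCre Rpl5flox/+ replicate 1, the lowest, the change was -0.32 (adjusted p = 0.0501). In VavCre Rps19flox/+ it was 1525, 1710 and 1863, against 910, 1095 and 1053 in Rps19flox/+, all higher (0.73 ± 0.12, adjusted p = 0.000188).

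Of the 5 genes, 3 were called in the Rpl5 line, where 37.2% of 10908 tested genes were called, and all 5 in the Rps19 line, where 53.7% were. Beside these counts, marker genes of other cells moved too. The summed level of 8 erythroid markers was 70450 to 77010 in VavCre Rpl5flox/+ Kit+ cytoplasm against 190621 to 271523 in Rpl5flox/+. In the Rps19 line it was 98014 to 175493 against 175423 to 309986. The sum of 8 granulocyte and monocyte markers was 46083 to 86340 in VavCre Rpl5flox/+ against 21545 to 23470 in Rpl5flox/+, and 3418 to 7261 in VavCre Rps19flox/+ against 15390 to 19789 in Rps19flox/+. The sum of 10 hepatocyte markers was 22003 to 40443 in VavCre Rpl5flox/+ against 5689 to 18165 in Rpl5flox/+, and 8310 to 11772 in VavCre Rps19flox/+ against 3661 to 9347 in Rps19flox/+. The sum of 6 B-lymphoid markers was 252 to 325 in VavCre Rpl5flox/+ against 1087 to 1402 in Rpl5flox/+, and 22.7 to 44.5 in VavCre Rps19flox/+ against 547 to 1130 in Rps19flox/+. The sum of 5 megakaryocyte markers was 266 to 305 in VavCre Rps19flox/+ against 579 to 644 in Rps19flox/+. The part of these cells in the changes was not tested.

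The change in the Rpl5 line minus the change in the Rps19 line tests whether the lines differed. In Kit+ cytoplasm, where 48.2% of genes were called, Rpl11 (0.49 ± 0.11, adjusted p = 0.00271), Rpf2 (0.68 ± 0.23, adjusted p = 0.0246) and Heatr3 (-1.17 ± 0.17, adjusted p = 0.000102) differed. For Rpl5 the difference was -0.37 ± 0.21 (adjusted p = 0.16), with an interval from -0.83 to 0.08, and without VavCre Rps19flox/+ replicate 1 it was -0.55 (adjusted p = 0.0159). Leaving out 1 library ended the Rpf2 call in 3 of 12 cases, namely Rpl5flox/+ replicate 3 (0.59, adjusted p = 0.065), Rps19flox/+ replicate 1 (0.62, adjusted p = 0.0607) or VavCre Rpl5flox/+ replicate 1 (0.63, adjusted p = 0.0581).

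The genes can be placed among their peers in the same fit. In VavCre Rpl5flox/+ Kit+ cytoplasm the change of Rpl5 was below that of all 45 other large-subunit ribosomal protein genes tested, whose median change was 0.33 with 30 higher and 1 lower. Rpl11 lay inside that group, above 18 of the 45. In VavCre Rps19flox/+ the 45 had a median of -0.25 with 4 higher and 24 lower, and 2 of them had a change below that of Rpl5. Heatr3 was below all 27 other large-subunit assembly factors in the Rpl5 line (median 0.17, 7 higher and none lower) and above 23 of the 27 in the Rps19 line (median 0.22, 13 higher and none lower). Rpf2 in the Rps19 line was below 26 of the 27. The medians of all genes were 0.03 and 0.01 in the Rpl5 and Rps19 lines.

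**Figure D2:**
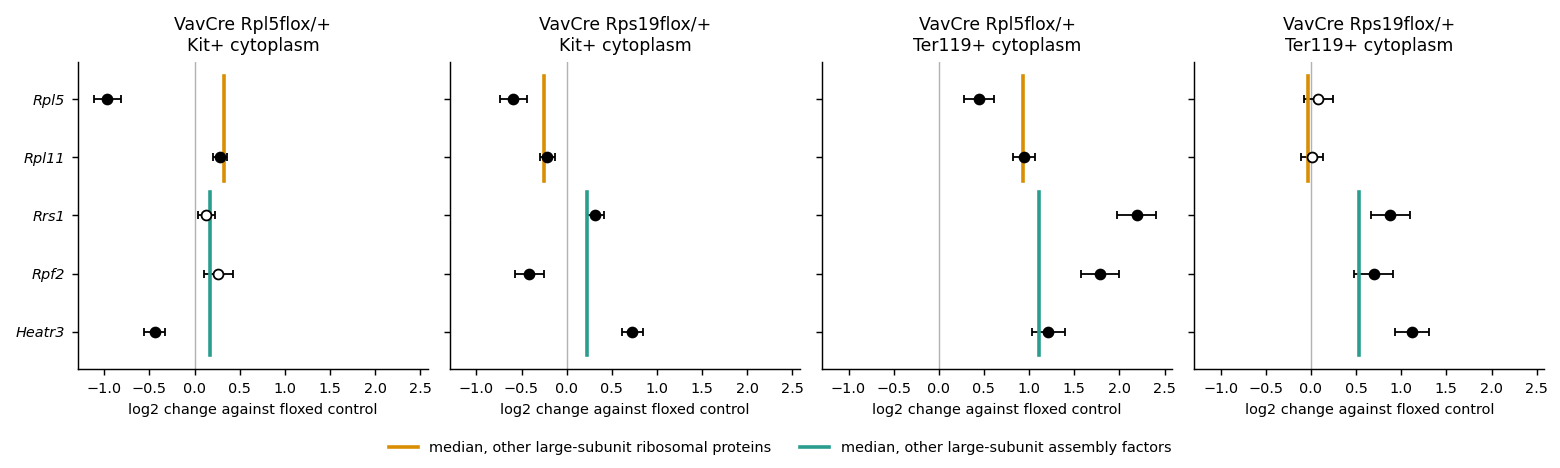
Log2 change of each gene against the floxed control of its line in cytoplasm, with bars for the standard error of the fit; filled points were called at an adjusted p under 0.05 and open points were not. Coloured lines are the median change of 45 other large-subunit ribosomal protein genes (beside Rpl5 and Rpl11) and 27 other large-subunit assembly factors (beside Rrs1, Rpf2 and Heatr3); in Kit+ cells Rpl5 lies left of its peers' median in both lines, and Heatr3 lies on opposite sides of 0 in the 2 lines.

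The other genes of the pathway were counted from lists, and their counts in Kit+ cytoplasm stand beside the 37.2% and 53.7% of all tested genes called in the Rpl5 and Rps19 lines. Of 13 genes for docking and remodelling of the particle, 3 were higher and 1 lower in VavCre Rpl5flox/+ Kit+ cytoplasm (median 0.13), and 8 higher and 1 lower in VavCre Rps19flox/+ (median 0.35). The smallest adjusted p in the Rpl5 line were for Rsl24d1 (0.43), Nsa2 (0.35) and Pelp1 (-0.37), and in the Rps19 line for Nol9 (1.00), Senp3 (0.87) and Pelp1 (0.96). In human cells Nol9, Senp3 and Pelp1 act together in processing the rRNA spacer of the large subunit. Of 20 genes that transcribe 5S rRNA, which RNA polymerase III makes with the factor Gtf3a, 3 were higher and 4 lower in the Rpl5 line and 11 higher and 2 lower in the Rps19 line. In the Rpl5 line both lists were called at about the share of all genes. Gtf3a itself rose by 0.37 in the Rpl5 line (adjusted p = 0.00495), where Gtf3c4 (-0.58) and Gtf3c2 (-0.47) of the same initiation machinery fell. In the Rps19 line Gtf3c1 (1.80), Polr3a (1.31) and Polr3e (0.63) had the smallest adjusted p. Among the other assembly factors these were Nip7 (0.45), Pes1 (0.30) and Ebna1bp2 (0.31) in the Rpl5 line, and Bop1 (1.29), Nop2 (1.00) and Noc2l (1.03) in the Rps19 line. Among the other large-subunit proteins they were Rpl36 (0.58), Rpl38 (0.68) and Rpl28 (0.36) in the Rpl5 line, and Rpl10 (1.39), Rpl17 (-0.68) and Rpl23 (-0.68) in the Rps19 line.

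In Ter119+ cytoplasm the libraries labelled VavCre Rpl5flox/+ had more of all 5 mRNAs than their controls, Rpl5 included. Rpl5 was 455, 496 and 549 in these libraries, against 295, 351 and 459 in Rpl5flox/+, so that the groups overlapped by 1 library each (0.44 ± 0.16, adjusted p = 0.0278). Taken alone, that direction goes against the label. Relative to the other large-subunit genes Rpl5 was lower in these libraries, and their cell markers moved (both below). Cdkn1a rose by 5.72 in them, as it rose in the other VavCre groups. Whether the label is right was not tested. Leaving out 1 library ended the call in 4 of 6 cases, namely Rpl5flox/+ replicate 1 (0.30, adjusted p = 0.131), Rpl5flox/+ replicate 2 (0.42, adjusted p = 0.0656), VavCre Rpl5flox/+ replicate 2 (0.45, adjusted p = 0.0625) and VavCre Rpl5flox/+ replicate 3 (0.38, adjusted p = 0.0963).

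Rpl11 was 17411, 16686 and 16499 in the libraries labelled VavCre Rpl5flox/+ Ter119+, against 7994, 8586 and 9755 in Rpl5flox/+ cytoplasm. The groups were far apart (0.95 ± 0.12, adjusted p = 1.77e-05). Rrs1 was 1443, 1088 and 1312, against 206 to 393 in Rpl5flox/+ (2.19 ± 0.22, adjusted p = 1.48e-06). Rpf2 was 502, 537 and 687, against 114 to 227 in Rpl5flox/+ (1.78 ± 0.21, adjusted p = 7.7e-06). Heatr3 was 579, 639 and 692, against 199 to 365 in Rpl5flox/+ (1.21 ± 0.18, adjusted p = 5.88e-05). In none of these 4 genes did the groups overlap, a trait not counted over all genes. All 5 genes were called higher, and 65.5% of 10939 tested genes were called, 35.3% of all tested as higher. The size of these changes depends on the scaling. With the libraries rescaled to each other by their abundant genes, the median of all genes moved to 0.69, against 0.16 as deposited, the share of calls that were higher moved to 75.1%, against 54.0%, and the change of Rpl5 was 1.00 (adjusted p = 0.000233). All 5 genes were higher under both scalings.

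The same peers moved in these libraries, where 65.5% of all tested genes were called. Of the 45 other large-subunit ribosomal protein genes 42 were higher and none lower (median 0.93), and the smallest adjusted p were those of Rpl36 (1.32), Rpl27a (1.17) and Rpl37a (1.10). Rpl11 was above 24 of the 45 and Rpl5 above only 3. Of the 27 other assembly factors 19 were higher and 1 lower (median 1.11), with the smallest adjusted p for Wdr12 (1.81), Nip7 (2.06) and Nop16 (2.05). The change of Rrs1 was above that of all 27. Of the 13 docking genes 11 were higher and none lower (median 0.94), with the smallest adjusted p for Rsl24d1 (2.17), Nle1 (1.76) and Nsa2 (1.03). Of the 20 genes of 5S rRNA transcription 7 were higher and 4 lower (median 0.09), a share below that of all genes. Gtf3a rose (1.30), while Gtf3c2 (-1.21) and Maf1 (-1.73), the repressor of RNA polymerase III, fell.

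Markers moved with this comparison. The summed level of 5 markers of Kit+ cells was 2984 to 3104 in Ter119+ cytoplasm labelled VavCre Rpl5flox/+ against 277 to 624 in Rpl5flox/+. The sum of 8 erythroid markers was 4.92 to 8.83 M against 18.6 to 46.0 M. The sum of 8 granulocyte and monocyte markers was 34893 to 70741 against 5741 to 10294. The B-lymphoid sum was 243 to 255 in the libraries labelled VavCre Rpl5flox/+ against 86.8 to 162 in Rpl5flox/+. No marker of these 4 lists was at 0 in all libraries of either group. All 5 genes were lower in Ter119+ than in Kit+ control cells (below), and the part of less mature or other cells in the changes was not tested.

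In VavCre Rps19flox/+ Ter119+ cytoplasm the 2 ribosomal proteins of the particle were not called and the 3 loading factors were higher. Rpl5 was 394 ± 32.8 in VavCre Rps19flox/+ and 372 ± 38.9 in Rps19flox/+ (SD, n = 3 each), with an interval of the log2 change from -0.27 to 0.43 (adjusted p = 0.741 in limma). Rpl11 was 10083 ± 1014 in VavCre Rps19flox/+ and 9958 ± 478 in Rps19flox/+ (SD, n = 3 each), with an interval from -0.25 to 0.28 (adjusted p = 0.945 in limma). Rrs1 was 643, 619 and 865 in VavCre Rps19flox/+, against 330, 366 and 435 in Rps19flox/+ (0.88 ± 0.22, adjusted p = 0.0098). Rpf2 was 256, 257 and 315, against 155, 182 and 157 in Rps19flox/+ (0.69 ± 0.21, adjusted p = 0.0289). Heatr3 was 684, 680 and 699.8, against 319, 344 and 268 in Rps19flox/+ (1.12 ± 0.18, adjusted p = 0.000908). The groups of these 3 genes did not overlap, and 25.8% of genes were called in this comparison.

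Leaving out 1 library ended the Rpf2 call in 5 of 6 cases (0.60 to 0.74, adjusted p = 0.114 at most), all but the one without Rps19flox/+ replicate 2. The Rrs1 call was lost without VavCre Rps19flox/+ replicate 3 (0.73, adjusted p = 0.0543). The sum of Kit+ markers was 799 to 1059 in VavCre Rps19flox/+ Ter119+ cytoplasm against 379 to 436 in Rps19flox/+, and the erythroid sum was 13.4 to 14.6 M against 22.5 to 23.5 M. The granulocyte and monocyte sum was 1723 to 2917 in VavCre Rps19flox/+ against 4919 to 8920 in Rps19flox/+, that of 8 macrophage markers 612 to 997 against 1605 to 4539, and the B-lymphoid sum 7.26 to 21.4 against 99.1 to 189. The B-lymphoid marker Ebf1 was at 0 in all 3 VavCre Rps19flox/+ libraries. The part of these cells in the changes was not tested. Of the 45 other large-subunit ribosomal protein genes only Rpl10 (0.65) was called, while 14 of the 27 other assembly factors were higher and 1 lower (median 0.54), with the smallest adjusted p for Nop2 (1.35), Wdr12 (1.23) and Ftsj3 (1.12). Of the docking genes 9 were higher and none lower (median 0.73), with the smallest adjusted p for Nle1 (1.46), Nol9 (1.00) and Tex10 (0.94). Of the genes of 5S rRNA transcription 6 were higher and none lower (median 0.29), with Gtf3c1 (1.08) and Polr3b (0.97) among them.

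Between the lines in Ter119+ cytoplasm, where 41.5% of genes were called, the change with Rpl5 exceeded the change with Rps19 for Rpl11 (0.93 ± 0.18, adjusted p = 0.00107), Rrs1 (1.31 ± 0.31, adjusted p = 0.00413) and Rpf2 (1.09 ± 0.30, adjusted p = 0.0108). The Heatr3 changes differed by 0.09, with an interval from -0.46 to 0.65 (adjusted p = 0.796). The Rpl5 changes differed by 0.36, with an interval from -0.14 to 0.86 (adjusted p = 0.228), and by 0.80 with the libraries rescaled to each other (adjusted p = 0.0226).

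The change in Ter119+ cells minus the change in Kit+ cells was positive for all 5 genes in both lines. In the Rpl5 line all 5 passed, where 48.4% of 11018 genes were called, 25.8% of all as higher. Of the calls 53.3% were higher, and 64.5% with the libraries rescaled. The differences were 1.41 ± 0.23 for Rpl5 (adjusted p = 3.54e-05), 0.67 ± 0.13 for Rpl11 (adjusted p = 0.000325), 2.06 ± 0.25 for Rrs1 (adjusted p = 1.15e-06), 1.52 ± 0.28 for Rpf2 (adjusted p = 0.000129) and 1.65 ± 0.22 for Heatr3 (adjusted p = 4.52e-06). The Rpl5 value exceeded that of all 45 other large-subunit ribosomal protein genes, and the Rrs1 value that of all 27 other assembly factors. In the Rps19 line, where 12.3% of genes were called, only Rpf2 passed (1.11 ± 0.28, adjusted p = 0.0134). There too Rpl5 was above all 45 other large-subunit genes, and Rpf2 above all 27 other assembly factors. Rpl5 was at 0.67 ± 0.23 (adjusted p = 0.0549) and passed with the libraries rescaled (0.79, adjusted p = 0.0374) and in voom (0.74, adjusted p = 0.045), and without Rps19flox/+ Ter119+ replicate 3 (0.75, adjusted p = 0.0414) or VavCre Rps19flox/+ Kit+ replicate 2 (0.79, adjusted p = 0.0326). These differences share their Ter119+ and Kit+ libraries with the changes given above.

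The control cells were used to compare the 5 mRNAs between Ter119+ and Kit+ cells. These fractions differ in lineage as well as maturation. The granulocyte and monocyte sum was 21545 to 23470 in Rpl5flox/+ Kit+ cytoplasm, against 5741 to 10294 in Ter119+. In Rps19flox/+ it was 15390 to 19789, against 4919 to 8920. The parts of lineage and maturation were not tested. In control cytoplasm (6 libraries of each cell type, both lines) all 5 were lower in Ter119+ than in Kit+ cells, and 80.3% of 11018 genes were called, 44% of all as lower. Of the calls 45.2% were higher, and 34.1% with the libraries rescaled, where the 5 changes ran from -2.62 to -0.97. Rrs1 ranged from 206 to 435 in Ter119+ libraries against 1427 to 1845 in Kit+ libraries (-2.30 ± 0.12, adjusted p = 7.81e-14). Rpf2 ranged from 114 to 227 against 577 to 704 (-1.93 ± 0.14, adjusted p = 1.51e-11), and Heatr3 from 199 to 365 against 910 to 1095 (-1.76 ± 0.11, adjusted p = 1.57e-12). Rpl5 ranged from 295 to 459 against 866 to 1112 (-1.41 ± 0.11, adjusted p = 1.13e-10). Rpl11 ranged from 7994 to 10406 against 13692 to 15479 and fell least, by 0.64 on the log2 scale (standard error 0.07, adjusted p = 8.71e-09). No gene's groups overlapped, a trait not counted over all genes. Rrs1 fell below all 27 other assembly factors (median -1.17, 1 higher and 23 lower), and Rpl5 fell below 44 of the 45 other large-subunit genes (median -0.51, 4 higher and 36 lower).

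Rpl5 was then set against its peers within each library, which removes what all large-subunit genes share. Levels within a library are here the log2 of the normalized count plus 1. The measure is the level of Rpl5 minus the median of the 45 other large-subunit genes. Its absolute value can depend on transcript length and on how reads shared with Dipk1a and the pseudogenes were counted, which is not known. Only its difference between groups is read. In Kit+ cytoplasm it was -5.18 ± 0.18 in VavCre Rpl5flox/+ and -3.88 ± 0.05 in Rpl5flox/+ (SD, n = 3 each), a difference of -1.30. In Ter119+ cytoplasm it was -5.19 ± 0.20 in the libraries labelled VavCre Rpl5flox/+ and -4.69 ± 0.19 in Rpl5flox/+ (SD, n = 3 each), a difference of -0.50. Neither pair of groups overlapped. So in the Ter119+ libraries labelled VavCre Rpl5flox/+ Rpl5 was higher in level than in the controls but lower relative to the other large-subunit genes.

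In VavCre Rps19flox/+ the measure was -4.29 ± 0.37 in Kit+ cytoplasm, against -3.98 ± 0.12 in Rps19flox/+ (SD, n = 3 each), with overlapping libraries. In Ter119+ cytoplasm it was -4.81 ± 0.05 in VavCre Rps19flox/+ and -4.88 ± 0.07 in Rps19flox/+ (SD, n = 3 each), again overlapping. For Rpl11 the same measure moved by -0.03, 0.08, -0.01 and -0.01 in the 4 comparisons (Rpl5 and Rps19 lines in Kit+ cells, then in Ter119+ cells), and only in the Rps19 line in Kit+ cells did the groups not overlap. The level of Rpl5 minus that of Rpl11 in the same library changed by -1.26 in VavCre Rpl5flox/+ Kit+ cells, -0.39 in VavCre Rps19flox/+ Kit+ cells, -0.49 in Ter119+ cells labelled VavCre Rpl5flox/+ and 0.07 in VavCre Rps19flox/+ Ter119+ cells. The level of Rrs1 minus that of Rpf2 changed by -0.14, 0.74, 0.38 and 0.16 in the same order, apart in the middle 2. These were 16 exact two-sided permutation tests of 3 against 3 libraries, in which p cannot go below 0.1, and the adjusted p of the groups that did not overlap was 0.2.

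**Figure D3:**
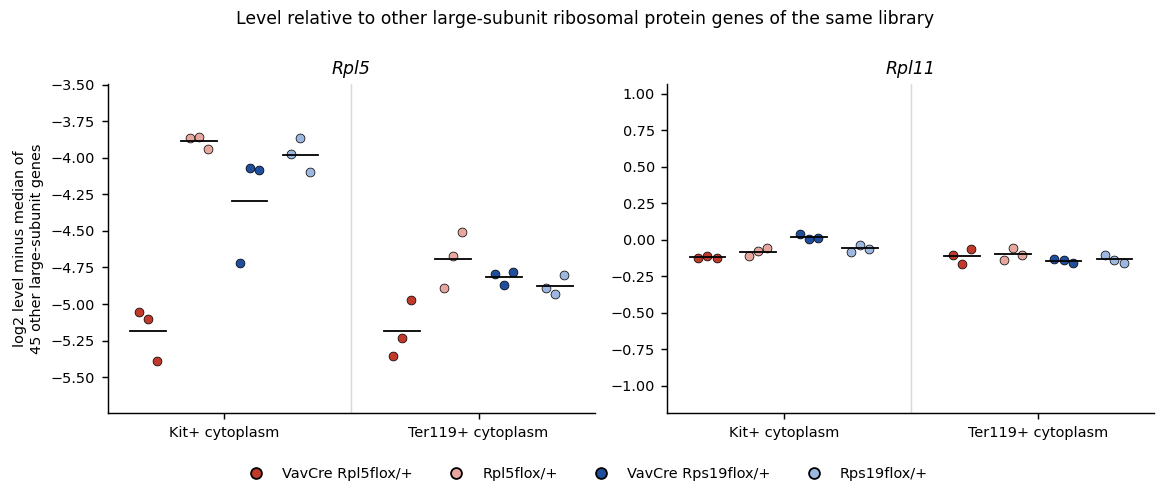
Level of Rpl5 (left) and Rpl11 (right) minus the median of 45 other large-subunit ribosomal protein genes of the same library. Levels are log2 of the normalized count plus 1. Points are the 24 cytoplasm libraries, lines are group means and both panels span the same number of log2 units. Rpl5 was lowest in the 2 groups labelled VavCre Rpl5flox/+ (means -5.18 and -5.19), while the Rpl11 libraries differ little.

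The Mdm2 and p53 arm, which the free particle is known to act on, was read in the same libraries. Of its 16 genes 13 were higher and 2 lower in VavCre Rpl5flox/+ Kit+ cytoplasm (median 1.36), and 13 higher and 1 lower in VavCre Rps19flox/+ (median 1.46). In Ter119+ cytoplasm 11 were higher and 3 lower in the libraries labelled VavCre Rpl5flox/+ (median 1.40), and 12 higher and 1 lower in VavCre Rps19flox/+ (median 1.43). Over all tested genes 37.2% and 53.7% were called in Kit+ cytoplasm of the Rpl5 and Rps19 lines, and 65.5% and 25.8% in Ter119+ cytoplasm. Mdm2, itself a p53 target, was 767, 667 and 739 in VavCre Rpl5flox/+ Kit+ cytoplasm, against 427, 399 and 436 in Rpl5flox/+ (0.76 ± 0.14, adjusted p = 0.000873). In VavCre Rps19flox/+ it was 470, 589 and 755, against 370, 402 and 445 in Rps19flox/+ (0.54 ± 0.14, adjusted p = 0.00502). In Ter119+ cytoplasm its changes were 0.30 ± 0.16 (adjusted p = 0.118) and 0.59 ± 0.16 (adjusted p = 0.0169) in the Rpl5 and Rps19 lines.

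Cdkn1a, the p53 target that blocks the cell cycle, rose by 4.99 and 5.77 in Kit+ and by 5.72 and 6.39 in Ter119+ cytoplasm of the Rpl5 and Rps19 lines, the smallest adjusted p of the list in each, with Zmat3 and Phlda3 next (3.85 to 5.22). Mdm4, the partner of Mdm2, was called only in the Rpl5 line in Kit+ cells (0.39, adjusted p = 0.00971). Its difference between the lines there was not called (0.31, adjusted p = 0.0972). In Ter119+ cytoplasm Mdm4 was 909 to 1035 in the libraries labelled VavCre Rpl5flox/+, against 555 to 695 in Rpl5flox/+, apart though not called. The Trp53 mRNA changed by -0.03 (adjusted p = 0.878) in VavCre Rpl5flox/+ Kit+ cytoplasm and by 0.98 (adjusted p = 2.14e-05) in VavCre Rps19flox/+, and the lines differed (-1.01 ± 0.17, adjusted p = 0.000312). In Ter119+ cytoplasm it rose by 1.04 and 1.00 in the Rpl5 and Rps19 lines. Rps19, the other deleted gene, fell by 0.48 on the log2 scale in VavCre Rps19flox/+ Kit+ cytoplasm (adjusted p = 0.00191) and was at -0.21 in Ter119+ cytoplasm (adjusted p = 0.302). In the Rpl5 line it rose by 0.39 (adjusted p = 0.0106) in Kit+ and by 1.08 (adjusted p = 1.7e-05) in Ter119+ cytoplasm.

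Polysome libraries show the level of each mRNA, relative to the other mRNAs of the library, in the fraction with several ribosomes. They do not give the share of an mRNA that was in this fraction. In control Kit+ cells (6 pools with both fractions) Rpl5 and Rpl11 were higher in polysome than in cytoplasm libraries of the same pool in all 6 pools. The difference ran from 0.15 to 1.81 for Rpl5 (0.92 ± 0.25, adjusted p = 0.0179) and from 0.25 to 1.09 for Rpl11 (0.68 ± 0.12, adjusted p = 0.0026). Rrs1 was lower in polysomes in all 6, by -2.28 to -1.18 (-1.59 ± 0.24, adjusted p = 0.000918). Heatr3 was also lower in all 6, by -7.14 to -1.13 (-3.37 ± 0.91, adjusted p = 0.0165), and in 2 of these pools it had 0 reads in polysomes. In the other pools its differences were -1.39, -1.69, -1.13 and -1.96, so the fitted size depends on how 0 is set. Rpf2 was not called (0.60 ± 0.33, adjusted p = 0.153). In this comparison 45.1% of genes were called and the median gene was at -1.32. Rrs1 lay near the median gene, as did Heatr3 in the pools where it had polysome reads.

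The Rpl5 call was lost without Rps19flox/+ replicate 2 (0.81, adjusted p = 0.0621). The 45 other large-subunit genes had a median of 1.07, with 32 higher and 6 lower in polysomes, and the 27 other assembly factors a median of -0.22, with 5 higher and 5 lower. In control Ter119+ cells (5 pools), where 26.7% of genes were called, only Rpl11 passed, and it was higher in all 5 pools (0.56 to 1.06, 0.85 ± 0.14, adjusted p = 0.00245). Rpl5 was higher in polysomes in 1 of the 5 pools (-1.31 to 0.60, -0.32 ± 0.35, adjusted p = 0.5), below 42 of the 45 other large-subunit genes, whose median was 0.78, and at 0.09 with the libraries rescaled. Whether the fraction difference of Rpl5 differed between Kit+ and Ter119+ cells was not tested.

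**Figure D4:**
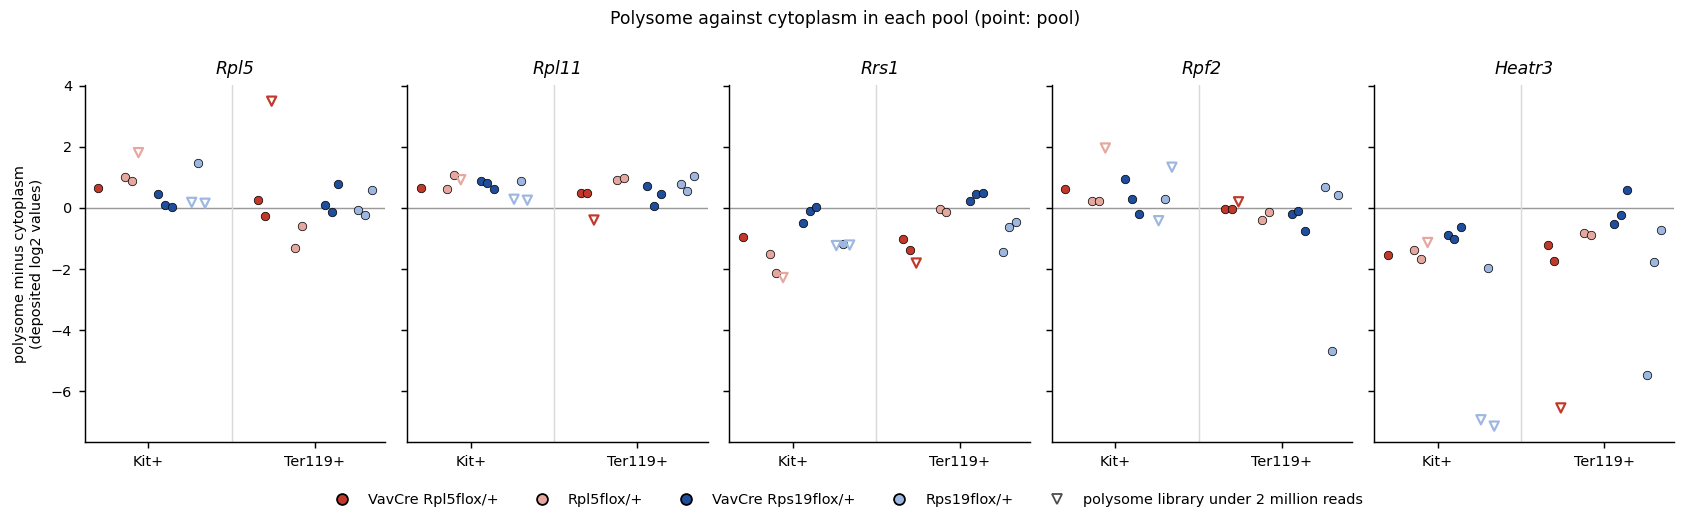
Deposited log2 value in the polysome library minus that in the cytoplasm library of the same pool, for each gene, cell type and genotype; each point is 1 pool and open triangles are pools whose polysome library held under 2 M reads. Rpl11 was above 0 in all pools but 1, Rrs1 was below 0 in all 11 control pools, and the values near -7 and -5 are libraries with 0 reads of the gene.

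With VavCre the polysome levels were less certain. The only polysome library of VavCre Rpl5flox/+ Kit+ cells had 917 for Rpl5, against 2244, 2040 and 3301 in Rpl5flox/+ (-1.42 ± 0.56, adjusted p = 0.423), and the lone library was assumed to vary like the others. In this comparison 1.82% of genes were called and none of the 5 was. Without the libraries under 2 M reads, where Rpl5flox/+ kept 2, the change of Rpl5 was -1.21. In the lone VavCre Rpl5flox/+ library the granulocyte and monocyte sum was 123235, against 39412 to 49164 in Rpl5flox/+. The erythroid sum was 145096, against 327668 to 717428. The hepatocyte sum was 89892, against 22394 to 34736.5, and the B-lymphoid sum 62.1, against 717 to 932. The part of these cells in the change was not tested. In VavCre Rps19flox/+ Kit+ polysomes Rpl5 was 684, 801 and 712, against 1184, 2750 and 966 in Rps19flox/+. All VavCre libraries were lower (-0.99 ± 0.39, adjusted p = 0.131), and voom on the recovered reads called it (-1.68, adjusted p = 0.00458).

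Rrs1 rose on VavCre Rps19flox/+ Kit+ polysomes, at 1514, 1793 and 2024 against 706, 676 and 675 in Rps19flox/+ (1.35 ± 0.31, adjusted p = 0.0242). Heatr3 was 822, 832 and 1210 against 0, 270 and 0 in Rps19flox/+ (5.23 ± 1.26, adjusted p = 0.0301). The 2 controls at 0 held 1.01 and 1.83 M reads, where 3 reads stand for 62.3 and 39.7 normalized counts, and the fitted size depends on how 0 is set. The Rrs1 call was lost without any 1 of the 3 VavCre libraries (1.25 to 1.46, adjusted p = 0.129 at most). The Heatr3 call held only without Rps19flox/+ replicate 2 (6.98) among the fits that left out 1 library, and was lost in the others (4.36 to 5.33, adjusted p = 0.138 at most). On this polysome set 9.86% of genes were called, the median gene was at 1.11, and VavCre Rps19flox/+ libraries held 10.8 to 37.6 M reads against 1.01 to 7.17 M in Rps19flox/+. The granulocyte and monocyte sum was 2671 to 6593 in these VavCre Rps19flox/+ polysomes against 26897 to 35602 in Rps19flox/+, the B-lymphoid sum 29 to 56.2 against 543 to 1911, and the erythroid sum 159200 to 231153 against 265607 to 586895. Rag1, a B-lymphoid marker, was at 0 in all libraries of both groups. The part of depth and of these cells in the changes was not tested.

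In the 3 Ter119+ polysome libraries labelled VavCre Rpl5flox/+ Rpl5 was 547, 410 and 6334, against 110 and 226 in Rpl5flox/+ (2.73 ± 1.01, adjusted p = 0.096). The value of 6334 is from replicate 3, which held 1.02 M reads and had 0 reads of Heatr3, and without it the change was 1.49 (adjusted p = 0.099). Without replicate 2 in its place the change was 3.44 (adjusted p = 0.0365). With all libraries none of the 5 genes was called, and 13.2% of genes were. In VavCre Rps19flox/+ Ter119+ polysomes 0.801% of genes were called and none of the 5. Rrs1 was 759, 855 and 1226 in VavCre Rps19flox/+, against 111, 230 and 315 in Rps19flox/+ (2.12 ± 0.60, adjusted p = 0.148), which were apart. Heatr3 was 474, 572 and 1070, against 0, 89.8 and 157 in Rps19flox/+ (3.72 ± 1.47, adjusted p = 0.297), also apart. The only Ter119+ polysome library under 2 M reads was replicate 3 of the other line, labelled VavCre Rpl5flox/+. Without it, Rrs1 (2.12, adjusted p = 0.0236) and Heatr3 (3.72, adjusted p = 0.0419) were called in VavCre Rps19flox/+. The size of these changes stayed the same, and only the shared spread changed. The granulocyte and monocyte sum was 45132 to 115809 in the Ter119+ polysomes labelled VavCre Rpl5flox/+ against 6102 to 9361 in Rpl5flox/+, and 1675 to 2499.8 in VavCre Rps19flox/+ against 4477 to 13534 in Rps19flox/+. The erythroid sum was 8.68 to 17.95 M in those labelled VavCre Rpl5flox/+ against 52.3 to 103 M in Rpl5flox/+, and 12.4 to 21.8 M in VavCre Rps19flox/+ against 24.3 to 35.3 M in Rps19flox/+. Their part in the polysome levels was not tested.

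**Figure D5:**
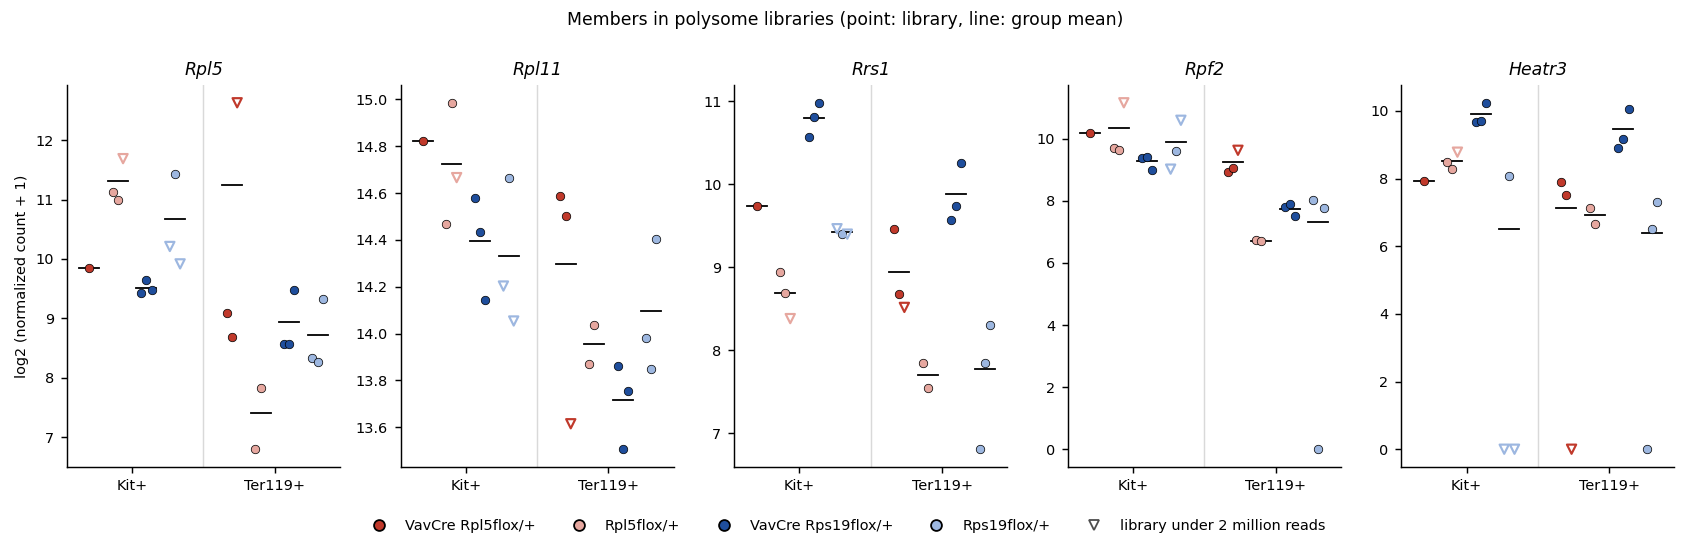
Level of each gene in the 21 polysome libraries, as log2 of the normalized count plus 1, by cell type and genotype; points are libraries, open triangles are libraries under 2 M reads, lines are group means, and each panel has its own vertical range. Points at 0 had no read of the gene, and Rrs1 and Heatr3 in VavCre Rps19flox/+ lie above the Rps19flox/+ libraries in both cell types.

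The change of the polysome-minus-cytoplasm difference with VavCre takes out the change in cytoplasm level. It still carries library scaling, depth and the mix of cells, whose parts were not tested. In Kit+ cells of the Rps19 line 8.51% of genes were called, and of the 5 only Heatr3 passed (4.50 ± 1.17, adjusted p = 0.0459), with the same 2 control libraries at 0 reads. Without the shallow libraries it was 1.12 (adjusted p = 0.0613), and leaving out 1 pool ended the call in 5 of 6 cases (3.61 to 4.60, adjusted p = 0.101 to 0.158), all but the one without Rps19flox/+ replicate 2. For Rrs1 the difference was -0.49, -0.09 and 0.04 in VavCre Rps19flox/+ pools, against -1.23, -1.18 and -1.21 in Rps19flox/+. These pools were apart (1.03 ± 0.33, adjusted p = 0.0801 in limma). The median gene also rose on VavCre Rps19flox/+ Kit+ polysomes, as given above. For Rpl5 the change was -0.40, with an interval from -1.41 to 0.61 (adjusted p = 0.554). It was -1.26 without the shallow libraries, which left 1 control pool (adjusted p = 0.0433).

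In Ter119+ cells none of the 5 passed in either line, where 2 genes (0.0184%) were called with Rps19 and 1 gene (0.00918%) with Rpl5. For Rrs1 all 3 VavCre Rps19flox/+ pools were above 0 (0.23, 0.45 and 0.50), against -1.46, -0.64 and -0.45 in Rps19flox/+ (1.24 ± 0.55, adjusted p = 0.471).

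The pattern of each gene over the 24 cytoplasm libraries was compared with that of 8945 genes with a mean of at least 50, as a description. The points share cell type, genotype and normalization, and no test is attached. Genes most like Rpl11 included Eef1b2 and Rpl30 (r of 0.99 each). Rrs1 was most like 2810004N23Rik, Zfp593 and Fbl (0.99 each), and Rpf2 most like Pum3, Npm1 and Hspa9 (0.99 each). Those most like Heatr3 included Epdr1 (0.98) and Tex10 (0.98). Rpl5 had weaker matches, which were Fam162a (0.94), Nasp (0.91) and Grsf1 (0.91). Among the members the highest r was 0.93 between Rrs1 and Rpf2, and Rpl5 and Rpl11 had 0.58.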

How the data were processed

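Poly(A) RNA of cytoplasm and polysome gradient fractions was sequenced with 100 bp paired-end reads, per the labels' protocols. The authors deposited 1 table of log2 values for 13449 genes in 45 libraries. The genome build was mm10, per the submitters' processing notes. What aligned and counted the reads, and what transformed them, is not given in the sources used here. The values behaved as a variance-stabilising transformation: inverting it gave whole reads for 100% of values (tolerance 1e-06), so depth, normalized counts and values at 0 could be recovered, with the lowest value, 2.92263, standing for 0 reads. The size factors equalled the median of ratios over 2434 genes.

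Groups came from the labels. Deposited log2 values were fitted with limma 3.58.1 in R 4.3.3 (trended empirical Bayes, two-sided, Benjamini-Hochberg adjustment over all tested genes, threshold 0.05), over genes whose normalized count averaged 10 or more. Counting reads per value limits precision in shallow libraries, and a count of 0 allows up to 3 reads. There were 18 comparisons. Fits of 1 cell type and fraction held both lines, which shared 1 estimate of spread; fits that set polysome against cytoplasm had the pool as a block. Alternatives were no filter, log2 of the normalized count plus 1, rescaling by genes with a mean of at least 500, voom on recovered reads, the replicate number as a block or no block, leaving out polysome libraries under 2 M (mega) reads, and leaving out each library in turn (97 refits). The fit was tested on simulated data. Replicates were compared for copies, and the closest of 43 pairs differed by far more than sampling noise (chi-square per degree of freedom 22.28).

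Each labelled batch was 1 pool of 1 genotype and cell type, so batch effects cannot be separated from pools. Same-numbered pools deviated together (correlation over 0.1 for every number) in the Rpl5 line, at 0.234, 0.251 and 0.305 in Kit+ and 0.127, 0.256 and 0.139 in Ter119+ cytoplasm, where the block changed no call of the 5 genes. The 5 genes and the lists were chosen with earlier results of these data known. The text names all 5, from each list the 3 genes of lowest adjusted p in the 4 cytoplasm comparisons of genotype, Mdm2, Mdm4, Trp53, Cdkn1a, Rps19 and Dipk1a, and the 3 genes most correlated with each; a few genes that this rule names are not reported here. Sequences and positions are from RefSeq's GRCm38.p6 tables, where 4 of the 5 genes had a start window.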

Additional observations from a re-analysis of the deposited data

Results flagged for a closer look

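These results are differences between changes, each found by its own term in limma across all genes with Benjamini-Hochberg adjustment. In Kit+ cytoplasm the change in the Rpl5 line minus that in the Rps19 line was 0.49 for Rpl11, 0.68 for Rpf2 and -1.17 for Heatr3. In Ter119+ cytoplasm the same difference was 0.93 for Rpl11, 1.31 for Rrs1 and 1.09 for Rpf2. In the Rpl5 line the change in Ter119+ cells minus that in Kit+ cells was 1.41 for Rpl5, 0.67 for Rpl11, 2.06 for Rrs1, 1.52 for Rpf2 and 1.65 for Heatr3. In the Rps19 line this difference was 1.11 for Rpf2. The markers of Kit+, erythroid and myeloid cells also moved between these groups, and their part in the differences was not tested.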

How the results depend on the processing

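Of 100 results for the 5 genes in the cytoplasm comparisons of genotype under another filter, scale, scaling, tool or block, 98 kept their direction and side of the threshold. The exceptions were both in VavCre Rps19flox/+ Kit+ cytoplasm, Rpf2 with no filter (-0.41, adjusted p = 0.0726) and Rrs1 with libraries rescaled (0.22, adjusted p = 0.0624). With 1 library left out, 97 of 120 kept both, 21 lost the call and 2 turned. Those ranges in Kit+ cytoplasm were 0.24 to 0.31 for Rpl11 and -0.55 to -0.32 for Heatr3 in the Rpl5 line, and -0.25 to -0.17 for Rpl11 and -0.55 to -0.17 for Rpf2 in the Rps19 line. In Ter119+ cytoplasm they were 0.30 to 0.61 for Rpl5 in the Rpl5 line, and -0.057 to 0.088 for Rpl11, 0.73 to 0.98 for Rrs1 and 0.60 to 0.76 for Rpf2 in the Rps19 line, where the genes called ranged from 1759 to 2863.

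Polysome counts of called genes depended on the processing, and the cause was not tested. In VavCre Rpl5flox/+ Kit+ polysomes they were 192 as fitted, 526 with no filter, 39 with voom, 92 with the replicate block and 1916 without shallow libraries (259 to 314 with 1 library left out). In VavCre Rps19flox/+ Kit+ polysomes they were 1041, 2266 with no filter, 2155 with voom and 2039 without shallow libraries (362 to 2517). In Ter119+ polysomes of the Rpl5 line they were 1406 and 2205 without shallow libraries (423 to 2407). In those of the Rps19 line they were 85, 146 with no filter, 605 with voom, 451 with the replicate block and 673 without shallow libraries (4 to 189). The control Ter119+ fractions gave 2823, and 1719 with libraries rescaled (1685 to 2324). For the change in loading, Kit+ cells of the Rps19 line gave 921, and 1780 with no replicate block (89 to 2599). Ter119+ cells of the Rps19 line gave 2, 1 with no filter, 69 with voom, 23 with no replicate block and 233 without shallow libraries (1 to 30). Those of the Rpl5 line gave 1, 2 with voom and 3 with no replicate block (0 to 828). The difference between cell types in the Rps19 line gave 1353 (723 to 1534).

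Some results turned direction, at small values in some cases and over wide ranges in others. In Kit+ polysomes Rpl11 was -0.15 with voom and -0.28 without shallow libraries in the Rps19 line, and -0.16 with the replicate block in the Rpl5 line. Heatr3 in Ter119+ polysomes of the Rpl5 line was 0.75 with the replicate block and without shallow libraries. Rpl5 with libraries rescaled was 0.094 between control Ter119+ fractions and -0.071 for loading in Ter119+ cells of the Rps19 line. Loading in Kit+ cells of that line was -0.12 for Rpl11 and 0.056 for Rpf2 without shallow libraries. With 1 library left out, Kit+ polysomes ran from -0.0047 to 0.25 for Rpl11 and -0.23 to 0.52 for Rpf2 in the Rpl5 line, and -0.048 to 0.26 for Rpl11 in the Rps19 line. Ter119+ polysomes ran from -1.78 to 0.75 for Heatr3 in the Rpl5 line, and -0.066 to 0.56 for Rpl5 and -0.15 to 2.44 for Rpf2 in the Rps19 line. The Heatr3 difference between lines in Ter119+ cytoplasm ran from -0.10 to 0.31, and Rpf2 between control Ter119+ fractions from -1.20 to 0.15. Loading in the Rps19 line ran from -0.62 to 0.035 for Rpl5 and -0.47 to 0.41 for Rpf2 in Kit+ cells, and from -0.12 to 0.40 and -0.91 to 1.79 in Ter119+ cells.

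With the replicate number as a block, VavCre Rps19flox/+ Kit+ polysomes lost the calls of Rrs1 (adjusted p = 0.0749) and Heatr3 (adjusted p = 0.0809), and Ter119+ polysomes gained Rrs1 (2.12, adjusted p = 0.0276). These pools share only a number. Without the pool as a block Rrs1 loading in Kit+ cells of the Rps19 line was called (1.03, adjusted p = 0.014). Rescaling moved the share of calls that were higher to 61.0%, against 48.4% as deposited, in Ter119+ cytoplasm of the Rps19 line, and to 74.8%, against 49.5%, for the difference between lines there. The shares were 60.8%, against 48.1%, for that difference in Kit+ cells, and 53%, against 32.0%, for the difference between cell types in the Rps19 line. They were 36.0%, against 22.3%, in Ter119+ polysomes of the Rpl5 line and 50.3%, against 18%, between control Ter119+ fractions. Depth limits Rpf2 and Heatr3 in polysomes, with 1 and 4 libraries at 0 reads.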
